A study of Mus musculus with 27 samples.

Results

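The ventricle of mice with an MBNL1 gain-of-function genotype (Tg in the labels) at postnatal day 7 (P7) was set against the control ventricle of postnatal day 60 (P60), taken here as the adult state. The comparison asks which adult features of gene expression the transgenic P7 ventricle already had and which remained far. Control ventricles of P7 gave the reference, the normal distance from the adult at that age. The members were chosen by the age and genotype in the sample labels. They are 4 transgenic P7 libraries, 3 P7 controls and 7 P60 controls, 14 of the 27 libraries of an RNA sequencing series that also holds P1 controls and P60 libraries labelled KO. Of the adult controls, 4 carry the label 7d and 3 the label 14d for the time after knockout. Whether those control mice carried a conditional allele or a recombinase, or received an inducing agent, is not stated in the material at hand, nor are the strain, the promoter and target cells of the transgene, or the number of transgenic lines. Nothing states that the samples of a group were separate animals, and the p-values therefore reflect only how these samples vary, a variation that can be technical. Each group held libraries of both sexes by Xist and Y-linked counts, so none came from a single animal.

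After birth the mouse ventricle leaves its fetal program. Cardiac muscle cells stop dividing, exchange fetal for adult forms of sarcomere proteins, build the calcium release units and ion currents of the adult beat, and turn from glucose to fatty acids as fuel. MBNL1, a muscleblind RNA-binding protein, regulates splicing and the stability and location of messenger RNAs, and it is known for driving the fetal-to-adult switch of splicing in heart and skeletal muscle. Its paralogs are MBNL2 and MBNL3.

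Total counts ran from 21929347 to 24817135 per library. TMM scaling factors, which correct for the make-up of a library, were 0.784 to 0.854 in the adult controls and 1.21 to 1.24 in the P7 libraries. Levels are CPM, counts scaled to a common library size with this factor. Differences are log2 fold changes ± SE from edgeR's quasi-likelihood test, and a gene is called at a Benjamini-Hochberg adjusted p under 0.05. The adult is the mean of the 7d and 14d controls, which differed from each other in 86 of 16237 genes (0.53%). Cardiac muscle genes dominated in every group, with 12 ventricular muscle markers summing to 48658 to 54106 CPM in transgenic P7, 49862 to 50606 in P7 controls and 71835 to 78968 in adults. In tissue RNA, fewer cells of a type and less RNA per cell cannot be told apart. The sources name no separate batches.

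Mbnl1 (ENSMUSG00000027763, chromosome 3, 60472830 to 60629750 on GRCm38) checked the labels. The transgenic libraries held 3830.2, 2771, 3233 and 3308 CPM, the P7 controls 99.4, 91.6 and 92.8, and the adults 138 to 159 (median 142). All 4 transgenic libraries thus lay far above both other groups, by 5.12 ± 0.10 on the log2 scale over P7 controls and 4.50 ± 0.07 over adults (adjusted p = 1.8e-15 and 1.7e-17), whereas the normal P7 level lay -0.62 ± 0.08 from the adult one. The transgenic dose was therefore outside the range that the normal ventricle spans between these ages. Mbnl2 stood at 130.5 ± 4.89 CPM in transgenic P7 (SD, n = 4), 141 ± 4.66 in P7 controls (n = 3) and 272 ± 30.8 in adults (n = 7), with no call between the P7 groups (-0.11 ± 0.09). Mbnl3, the low-abundance paralog of immature tissue, stood at 1.10 ± 0.227, 2.11 ± 0.673 and 0.256 ± 0.142 CPM. Its difference between the P7 groups (-0.94 ± 0.27) was called, but not without transgenic library 1 or 3 or P7 control library 1 or 3.

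Most of the transcriptome of the transgenic P7 ventricle remained that of a P7 heart. Against the adult, 12275 of 16237 genes were called (75.6%), 6441 higher (39.7%) and 5834 lower (35.9%). P7 controls had 12120 calls against the same adults (74.6%), 6328 higher (39%) and 5792 lower (35.7%). At least 2-fold and called were 4509 genes in transgenic P7 and 4799 in P7 controls, and the median absolute log2 distance was 0.56 and 0.59. These 2 comparisons share the adult libraries. The direct comparison of the P7 groups tests the difference between the distances. It called 3532 genes (21.8%), 1635 higher (10.1%) and 1897 lower (11.7%) in the transgenic ventricle, 512 of them at least 2-fold. In a joint fit of the whole series (27 libraries) these counts were 511 and 462. Scaling by total counts alone moved the median gene of both distances from the adult by about the same amount, from 0.06 to 0.64 for transgenic P7 and from 0.05 to 0.64 for P7 controls, and left the direct comparison near 0 (-0.01 and -0.02). It turned the split against the adult to 11203 higher and 2533 lower for transgenic P7 and to 10987 and 2579 for P7 controls, so levels above or below the adult are relative to the median gene.

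Along the axis from P1 to adult, the transgenic libraries lay further on than their age controls. Each library was placed on the line from the mean of 4 P1 controls (0%) to the mean of the adult controls (100%) over the log2 CPM of all genes tested. The transgenic libraries stood at 26.9, 26.3, 27.4 and 27.1% and the P7 controls at 17.8, 16.7 and 18.1%, with no overlap. The means were 26.9% ± 0.446 (SD, n = 4) and 17.6% ± 0.739 (n = 3). Since P1 libraries 3 and 4 stand apart from the other P1 controls, the axis was redrawn without them, which put the groups at 34.0% ± 0.244 and 25.5% ± 0.739. Both groups thus lay nearer to P1 than to the adult. The gene lists, placed on the axis from all 4 P1 controls, spread widely around the values over all genes, as the plot of positions by list shows. Sarcomere genes stood at 43.5% ± 1.63 against 26.4% ± 1.12, calcium cycling genes at 39.8% ± 3.23 against 24.0% ± 0.807, glycolysis genes at 64.9% ± 2.38 against 48.4% ± 3.39 and mitosis genes at 20.9% ± 1.32 against 7.78% ± 1.31. Other lists lay further back in the transgenic libraries, among them the citric acid cycle at 2.09% ± 1.07 against 11.3% ± 5.33, the nuclear-encoded respiratory chain at 8.06% ± 2.66 against 14.9% ± 3.11 and ion channels at 4.08% ± 2.28 against 12.7% ± 2.53. For extracellular matrix, the groups overlapped near 0 (1.13% ± 2.63 against -0.321% ± 2.65). A position weighs each gene by its change from P1 to the adult, so genes with large changes count most. The median distance from the adult counts each gene alike. In transgenic and control P7 it was -0.80 and -0.78 for sarcomere genes and -0.25 and -0.16 for calcium cycling genes. For glycolysis genes it was -0.57 and -0.47, and for mitosis genes 3.38 and 3.93.

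**Figure D1:**
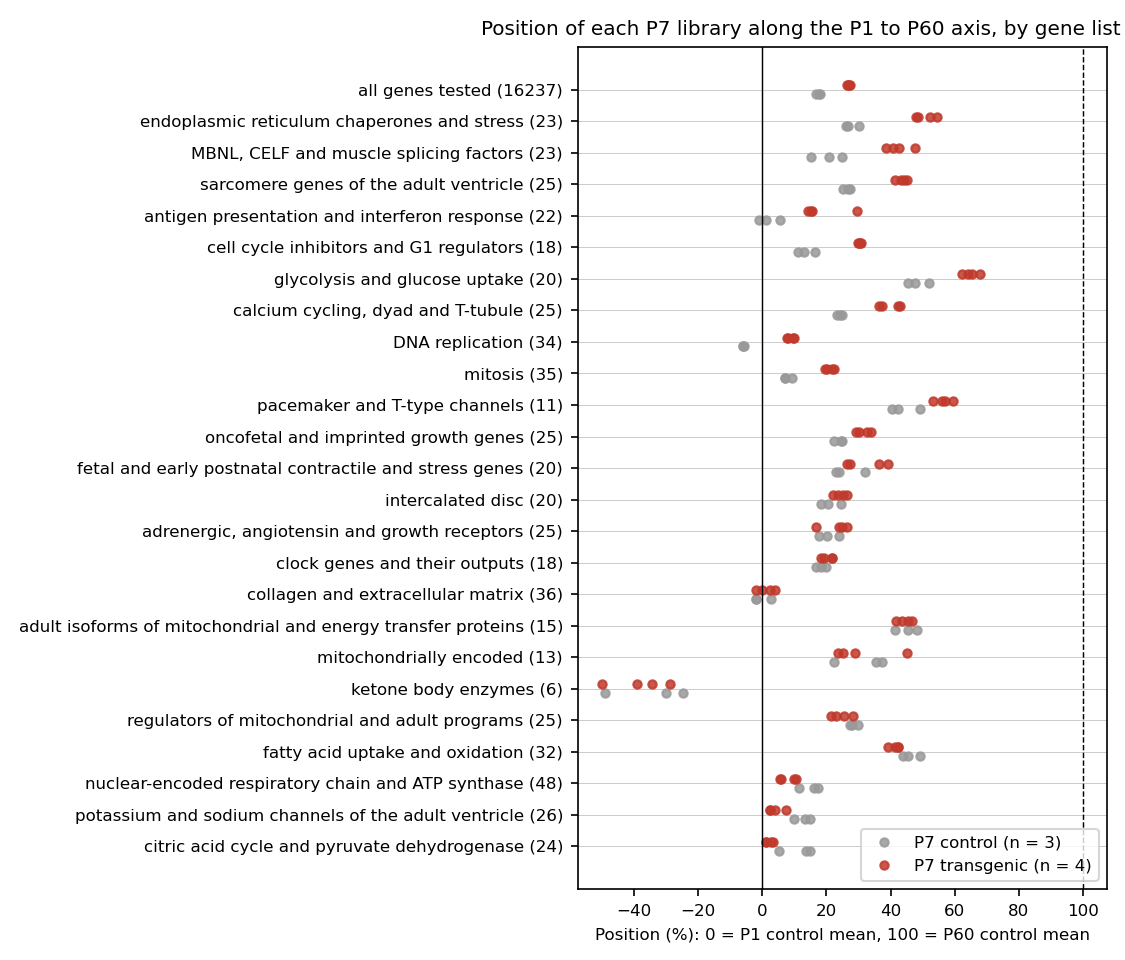
Position of each P7 library (points; red, transgenic, n = 4; grey, control, n = 3) between the P1 control mean (0) and the P60 control mean (100) in percent, for 24 gene lists and, at the top, all 16237 genes. Over all genes the transgenic libraries lie at 26.3% to 27.4% and the controls at 16.7% to 18.1%, while lists at the bottom, such as the citric acid cycle, lie further back in the transgenic libraries.

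Genes that mature between P1 and P60 in controls moved in part towards the adult level. They were taken from a fit of P1 and P60 controls, which shares no library with the direct comparison of the P7 groups. Of 2491 genes at least 2-fold higher in the adult than at P1, 555 were higher in transgenic P7 than in P7 controls (22.3%, against 10.1% of all genes) and 213 lower (8.55%, against 11.7%). Of 2536 genes at least 2-fold lower in the adult, 667 were lower (26.3%, against 11.7%) and 90 higher (3.55%, against 10.1%). Their median distance from the adult was -1.26 in transgenic P7 and -1.42 in P7 controls for the genes of the adult, and 1.37 and 1.55 for the genes of P1. In the joint fit of 27 libraries the counts were 217 higher and 51 lower of the adult-high genes and 190 lower and 29 higher of the adult-low genes.

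The 4799 genes at least 2-fold from the adult in P7 controls were then sorted by the direct comparison. In the transgenic ventricle 1129 were called nearer to the adult, 232 further away, and 3438 had no call. Near the adult level were 304 of them (6.33%), defined as called towards the adult with a 95% interval of the remaining distance inside 2-fold either way. These were 190 genes below the adult level in P7 controls and 114 above it. Genes below the adult level split into 509 nearer and 159 further of 2164, and genes above it into 620 nearer and 73 further of 2635. A 1.5-fold bound in place of 2-fold left 49 near genes. Because genes were sorted here by values of the P7 controls that enter both comparisons, these counts are descriptions.

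**Figure D2:**
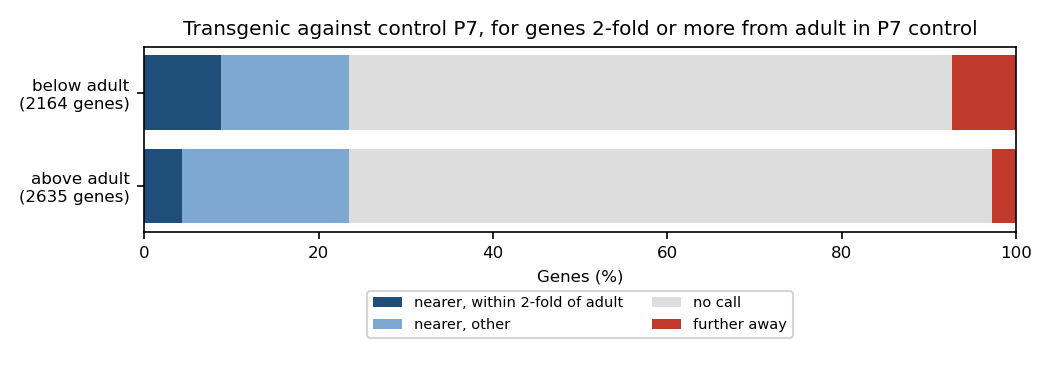
Genes at least 2-fold above (2635) or below (2164) the adult level in P7 controls, in percent, split by the direct comparison of transgenic and control P7. The grey part, genes with no call, is the largest in both bars, and the dark blue part is the 114 and 190 genes that were near the adult level in the transgenic ventricle.

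Among the named genes near the adult level by this rule, Xirp2 and Cdnf had the largest normal distances. Xirp2 (ENSMUSG00000027022, chromosome 2, 67446002 to 67526614) encodes an actin-binding repeat protein of the Z-disc and intercalated disc. It held 373, 313, 598 and 398 CPM in transgenic P7, 77.2, 81.6 and 70.2 in P7 controls and 346 to 539 in adults (median 402). The transgenic values spread around the adult range and all lay above the P7 controls (2.46 ± 0.20, adjusted p = 3.9e-07), with -0.06 ± 0.15 left to the adult where the normal distance was -2.52 ± 0.19. Cdnf (ENSMUSG00000039496, chromosome 2, 3513030 to 3526376), a neurotrophic factor of the endoplasmic reticulum, held 27.1, 26.5, 24.6 and 27.2 CPM against 3.43, 3.48 and 3.73 in P7 controls and 20.6 to 25.73 in adults. Its remaining distance was 0.18 ± 0.06 where the normal one was -2.71 ± 0.09, and the transgenic values overlapped the adult ones. Ccn2 (ENSMUSG00000019997, chromosome 10, 24595442 to 24598683), the matricellular connective tissue growth factor, held 188, 143, 167 and 118 CPM against 27.6, 37.6 and 34.4 and 130.5 to 285 in adults, where P60 control library 2 was the highest.

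The other genes of the near group with the largest normal distances below the adult were Ephx1, Pdzd3, Nr4a1, P2rx5 and Cpeb1. The epoxide hydrolase Ephx1 stood at 68.2 ± 10.8 CPM in transgenic P7, 17.1 ± 0.635 in P7 controls and 67.5 ± 8.58 in adults. The PDZ scaffold gene Pdzd3 stood at 5.52 ± 0.864, 0.946 ± 0.0726 and 5.30 ± 0.677. Nr4a1, an orphan nuclear receptor of the immediate early class, stood at 40.1 ± 6.95, 15.3 ± 1.23 and 58.2 ± 25.8. In these 3 genes the transgenic values overlapped the adult ones. They overlapped none of the P7 controls, which was a condition for naming a near gene. The ATP-gated channel P2rx5 (-0.62 ± 0.09 left of -1.84 ± 0.11) and Cpeb1, which regulates polyadenylation of messenger RNAs (-0.72 ± 0.11 left of -2.20 ± 0.13), stayed below every adult value.

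Genes that normally fall after P7 and were already near the adult level, by the 2-fold rule, included a channel and a transcription factor of the immature ventricle. Cacna1g (ENSMUSG00000020866, chromosome 11, 94408391 to 94474198), which encodes a T-type calcium channel of fetal muscle and pacemaker cells, held 48.9, 47.1, 37.1 and 42.4 CPM in transgenic P7, 111, 122 and 113 in P7 controls and 21.4 to 42.8 in adults. The transgenic libraries were all below the P7 controls (-1.39 ± 0.15), and 2 of the 4 lay within the adult range. Hey2 (ENSMUSG00000019789, chromosome 10, 30832359 to 30842801), a Notch-responsive repressor of compact ventricular muscle, held 7.87, 7.52, 7.78 and 8.54 CPM against 21.1, 20.7 and 18.7 and 5.47 to 8.15. Inhibitors of protein phosphatase 1 moved the same way: Ppp1r1a stood at 2.54 ± 0.624, 7.75 ± 0.660 and 1.93 ± 0.529 CPM and Ppp1r1b at 1.42 ± 0.475, 7.82 ± 0.247 and 1.82 ± 0.819. Acss3, a mitochondrial acyl-CoA synthetase, stood at 1.98 ± 0.536, 5.50 ± 1.02 and 1.71 ± 0.951, and the noncoding or uncharacterised genes BC002189, N4bp2os and Gm11992 completed the list, with 0.48 ± 0.22, 0.71 ± 0.12 and 0.55 ± 0.20 left to the adult.

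**Figure D3:**
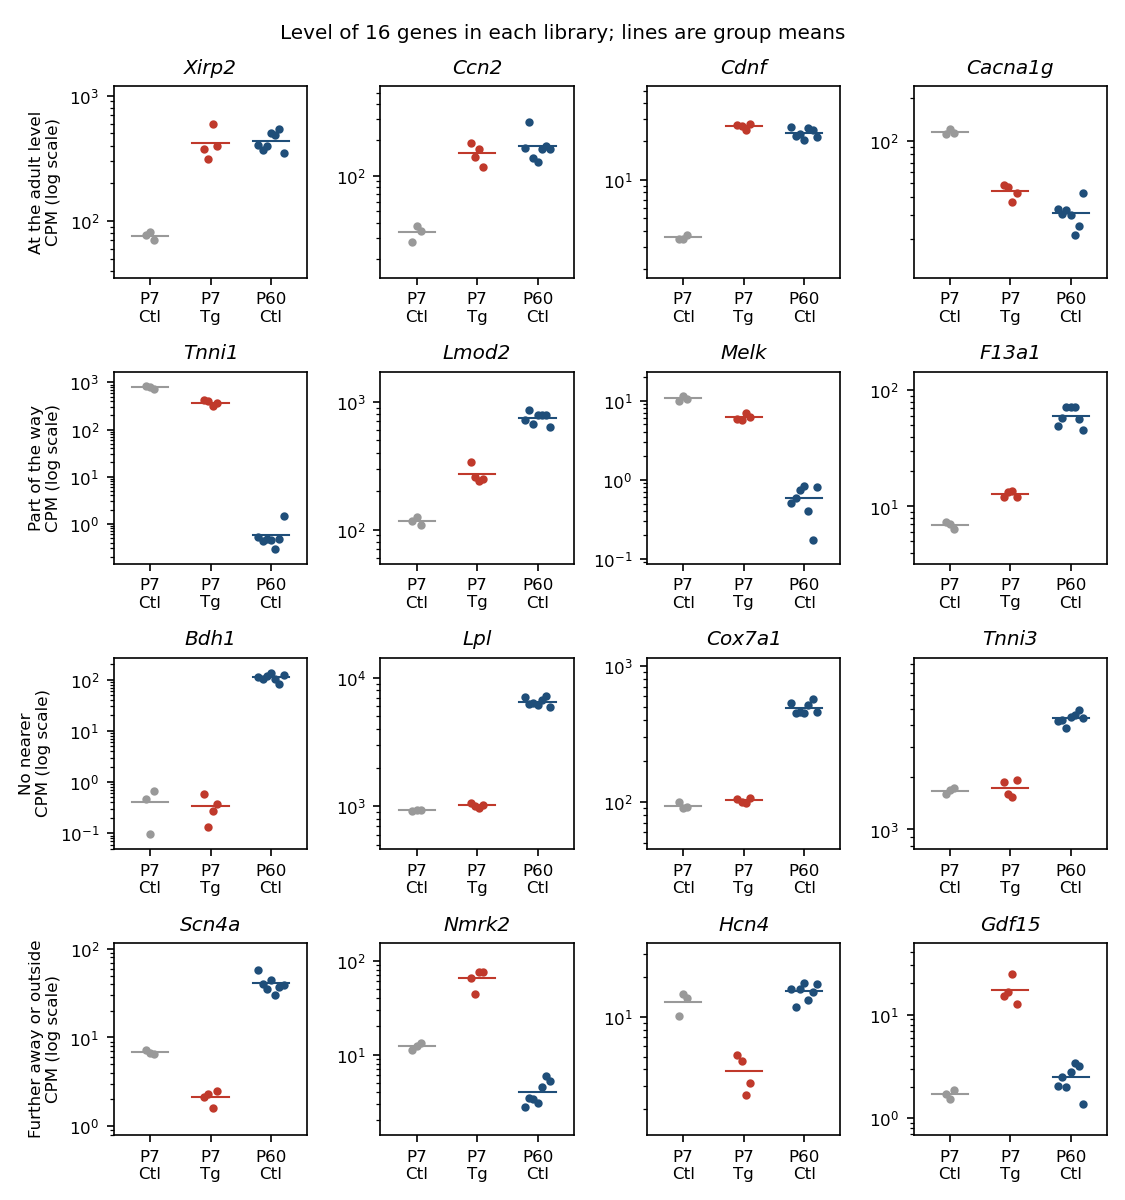
Level of 16 genes (CPM, log axes of differing range) in each library of P7 control (grey, n = 3), P7 transgenic (red, n = 4) and P60 control (blue, n = 7), with lines at the group means. In the top row the transgenic points reach the adult points, in the second they lie between the other groups, in the third they stay with the P7 controls, and in the bottom row they lie further from the adult than the P7 controls or outside both groups.

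The contractile apparatus was mixed. Of 25 sarcomere genes of the adult ventricle, 8 were higher and 6 lower in transgenic than in control P7 (background 10.1% and 11.7%). Against the adult, 21 of the 25 were lower and 1 higher (background 35.9% and 39.7%), and in P7 controls 24 lower and 1 higher. With total count scaling, 16 were lower and 6 higher in transgenic P7, and 13 lower and 5 higher in P7 controls. Which P7 group had more lower genes thus depended on the scaling. The list's median distance was -0.80 in transgenic P7 and -0.78 in P7 controls, where all genes had 0.06 and 0.05. The lower count fell to 2 without transgenic library 3 or P7 control library 3, and to 3 without transgenic library 4 or P7 control library 1.

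Single genes of the contractile apparatus moved in both directions. Lmod2 (ENSMUSG00000029683, chromosome 6, 24597762 to 24605414), the leiomodin that elongates actin filaments, held 336, 256, 239.8 and 249 CPM in transgenic P7, 116, 124 and 108 in P7 controls and 638 to 857 in adults. It stood between the groups without overlap, at -1.47 ± 0.10 from the adult against a normal -2.68 ± 0.12. Tcap, the titin cap of the Z-disc, held 357, 315, 244 and 297 CPM against 171, 183 and 167 and 818 to 1554, with -2.02 ± 0.16 left of -2.82 ± 0.19. Des, the intermediate filament desmin that links myofibrils, stood at 1982 ± 222, 1188 ± 29.5 and 2816 ± 192 CPM and counted as near the adult (-0.51 ± 0.07). Actc1, cardiac alpha-actin, overlapped the adult range with 14281, 13757, 14869 and 14623 CPM against 14110.4 to 17081, though its call over P7 controls (0.27 ± 0.07) was lost without P7 control library 2. Tropomyosin gene Tpm1 went the other way, with 3479, 3036, 2916 and 3466 CPM against 4158, 4151 and 4408 in P7 controls and 7862 to 8956 in adults, which widened the distance from -0.98 ± 0.06 to -1.38 ± 0.05. The Z-disc gene Ldb3 did likewise (from -0.51 ± 0.05 to -0.80 ± 0.05). No change was called for the main adult forms: Myh6, the alpha-myosin heavy chain, differed by -0.06 ± 0.08 between the P7 groups and Tnni3, cardiac troponin I, by 0.05 ± 0.08. The largest gap in the list was Myot, the Z-disc protein myotilin, at -5.12 ± 0.26 against a normal -4.95 ± 0.29.

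The troponin I switch was advanced but incomplete. Tnni1 (ENSMUSG00000026418, chromosome 1, 135779434 to 135810989), the slow skeletal form of troponin I used before birth, held 418, 403, 312 and 363 CPM in transgenic P7, 841, 804 and 708 in P7 controls and 0.287 to 1.47 in adults (median 0.466). All transgenic libraries were below all P7 controls (-1.07 ± 0.13, adjusted p = 3e-05), and still 9.28 ± 0.17 above the adult on the log2 scale. Scaled to exon length, Tnni1 made up 11.4, 12.6, 10.4 and 9.76% of Tnni1 and Tnni3 together in the transgenic libraries and 23.1, 21.4 and 18.9% in P7 controls. Adults held 0.00360 to 0.0192%. The transgenic share of 11.04% ± 1.23 was thus between 21.1% ± 2.14 and the adult (two-sided exact permutation p = 0.0286 against P7 controls, adjusted p = 0.0390 over 18 share tests, and p = 0.00303 against adults, adjusted p = 0.0182). With 4 against 3 libraries 0.0286 is the smallest p the test can give, and with 4 against 7 it is 0.00303.

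Other isoform pairs went in differing directions. The brain creatine kinase Ckb made up 14.8% ± 1.001 of Ckb and muscle Ckm in transgenic P7 (n = 4), above the 10.1% ± 0.951 of P7 controls (n = 3, exact permutation p = 0.0286, adjusted p = 0.0390) and further from the 3.21% ± 0.372 of adults. The widely expressed cytochrome oxidase subunit Cox7a2 made up 50.1% ± 1.63 of Cox7a2 and the muscle form Cox7a1, below the 55.1% ± 0.548 of P7 controls (exact permutation p = 0.0286, adjusted p = 0.0390) and well above the 24.2% ± 1.28 of adults. Beta-myosin Myh7 made up 2.01% ± 0.560 of Myh7 and Myh6, against 1.16% ± 0.156 in P7 controls and 1.11% ± 0.375 in adults, and its difference between the P7 groups had an exact permutation p of 0.0571 (n = 4 and 3, adjusted p = 0.0686). Skeletal actin Acta1 made up 2.18% ± 0.874 of Acta1 and Actc1, against 1.39% ± 0.280 and 4.03% ± 1.31. The glucose transporter Slc2a1 made up 6.17% ± 1.03 of Slc2a1 and insulin-responsive Slc2a4, against 5.31% ± 0.363 and 3.80% ± 0.683. For these last 2 pairs the exact permutation p between the P7 groups was 0.143 and 0.257 (n = 4 and 3). Myosin heavy chains and actins are near-identical copies whose reads may have been split, so their shares are uncertain.

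**Figure D4:**
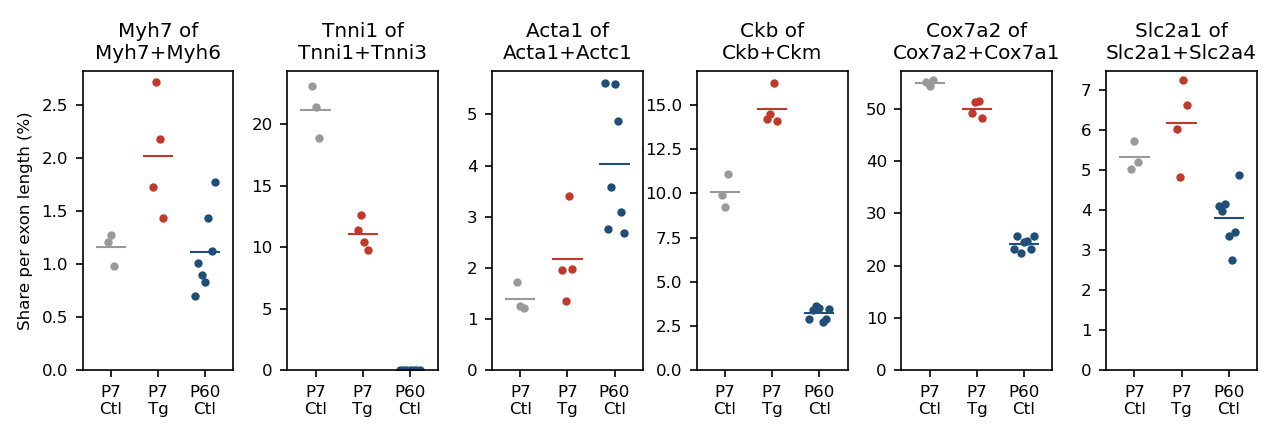
Share of the first gene in the sum of 2 related genes, each scaled to exon length (percent, axes from 0), per library with lines at the group means (P7 control n = 3, P7 transgenic n = 4, P60 control n = 7). For Tnni1 the transgenic points lie between P7 controls and adults, for Ckb above both, and for Cox7a2 just below the P7 controls.

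Natriuretic peptide genes, which the fetal ventricle expresses and the stressed adult ventricle expresses again, left the normal range altogether. Nppa held 229, 261, 488 and 204 CPM in transgenic P7, 37.0, 70.7 and 141 in P7 controls and 60.04 to 106 in adults, higher in every transgenic library than in both other groups (1.83 ± 0.35 and 1.76 ± 0.27). Transgenic library 3 was the highest. Nppa is also an atrial gene, and the summed level of 10 atrial markers, Nppa among them, ran from 412 to 685 CPM in transgenic P7, 246 to 685 in P7 controls and 231 to 409.9 in adults. The atrial light chain Myl7, looked at after its values were seen, held 61.2, 93.1, 20.7 and 20.5 CPM in the transgenic libraries and 28.6, 132 and 131 in P7 controls. Transgenic library 3, the highest in Nppa, was among the lowest in Myl7, while the P7 control lowest in Nppa was also the lowest in Myl7. The part of atrial tissue in the Nppa values was not tested. Nppb held 228, 223, 297 and 240.4 CPM against 45.1, 49.8 and 51.3 and 58.4 to 182, so it passed the adult level (1.03 ± 0.16) from a normal distance of -1.31 ± 0.19. Of the 20 fetal and early postnatal contractile and stress genes, 6 were higher and 5 lower than in P7 controls (10.1% and 11.7% of all genes), and 3 and 0 in the joint fit. Among the lower ones was the smooth muscle light chain Myl9 (131 ± 8.87, 222 ± 30.1 and 37.5 ± 5.27 CPM in transgenic P7, P7 controls and adults). The lower count was 2 to 3 without transgenic library 2, 3 or 4, P7 control library 3 or P60 control library 2.

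Calcium cycling and ion channel genes were more often lower than higher against P7 controls. Of 25 genes of calcium cycling, the dyad and the T-tubule, 4 were higher and 12 lower than in P7 controls (10.1% and 11.7% of all genes), and 0 and 1 in the joint fit of 27 libraries, with a median of -0.25 from the adult against -0.16. Asph, whose products include junctin of the calcium release complex, reached the adult range (175, 162, 171 and 179 CPM against 123, 124 and 122 and 143 to 183). S100a1, a calcium sensor that binds the release channel, was higher (0.42 ± 0.11) but still -1.53 ± 0.10 from the adult, and its call was lost without P7 control library 1. The L-type channel subunit Cacnb2 fell outside both groups, with 54.2, 54.1, 48.5 and 62.0 CPM against 79.5, 77.8 and 80.7 and 74.3 to 99.8. Hrc, a calcium buffer of the sarcoplasmic reticulum, and Jph1, a junctophilin, remained -2.51 ± 0.07 and -1.81 ± 0.10 from the adult, against -2.23 ± 0.08 and -1.49 ± 0.10 in P7 controls.

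Of 26 potassium and sodium channel and pump genes of the adult ventricle, 1 was higher and 13 lower than in P7 controls (10.1% and 11.7% of all genes). In transgenic P7 21 were lower than the adult, where P7 controls had 18 (35.9% and 35.7% of all genes). Their median distance was -1.08 against -0.79, the median difference between the P7 groups -0.36 against -0.01 over all genes. The joint fit of 27 libraries called 1 higher and 6 lower than in P7 controls. With total count scaling, 15 genes were lower and 7 higher than the adult in transgenic P7, and 13 lower and 11 higher in P7 controls. The sodium channel Scn4a (ENSMUSG00000001027, chromosome 11, 106318592 to 106353288) held 2.15, 2.31, 1.58 and 2.47 CPM in transgenic P7, 7.26, 6.70 and 6.56 in P7 controls and 30.02 to 57.9 in adults. Every transgenic value was thus below every P7 control, which took the gene from -2.54 ± 0.15 to -4.22 ± 0.15 from the adult. Kcnd2, a pore subunit of the transient outward potassium current, held 2.01, 3.30, 3.03 and 4.002 CPM against 8.29, 7.44 and 6.53 and 29.6 to 39.1. Scn4b and Kcnv2 were barely expressed at P7 with or without the transgene (0.186 ± 0.155 and 0.463 ± 0.186 CPM for Scn4b, 0.201 ± 0.0290 and 0.120 ± 0.0929 for Kcnv2) against 48.3 ± 12.6 and 15.5 ± 1.07 in adults.

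Hcn4 (ENSMUSG00000032338, chromosome 9, 58823412 to 58863175), the pacemaker channel, lay outside both reference groups with 5.14, 4.65, 2.53 and 3.13 CPM against 10.2, 14.9 and 13.9 in P7 controls and 11.8 to 18.2 in adults. The log2 difference was -1.75 ± 0.20 from P7 controls and -2.02 ± 0.18 from adults, whose ranges overlapped each other. Within each P7 group, Hcn4 was lower in the libraries with little of the atrial light chain Myl7. Between the groups, transgenic library 2 held more Myl7 but less Hcn4 than P7 control library 1. The part of atrial tissue in the Hcn4 values was not tested. The T-type channel Cacna1h stayed high (2.03 ± 0.36 from the adult) with no call between the P7 groups (-0.52 ± 0.40). Of 25 adrenergic, angiotensin and growth receptor genes, 2 were higher and 4 lower, near the 10.1% and 11.7% of all genes. The adenosine receptor Adora1 moved away from the adult (8.70 ± 1.21, 15.8 ± 0.613 and 24.9 ± 6.38 CPM in transgenic P7, P7 controls and adults), the alpha-1B receptor Adra1b fell from above the adult to below it (-0.31 ± 0.08 from 0.51 ± 0.09), and the natriuretic peptide clearance receptor Npr3 rose to the lower edge of the adult values (19.7 ± 2.09, 12.9 ± 1.02 and 24.7 ± 3.22). The alpha-1A receptor Adra1a remained -5.13 ± 0.21 from the adult. At intercalated discs, where muscle cells join, 1 of 20 genes was higher and 7 lower (10.1% and 11.7% of all genes), and 0 and 2 in the joint fit. These included Nrap, an actin anchor of the disc, at 554 ± 47.0 CPM against 399 ± 37.7 and 773 ± 65.7, and the connexin gene Gjc1 at 33.2 ± 3.64 against 48.5 ± 2.07 and 16.1 ± 2.42.

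**Figure D5:**
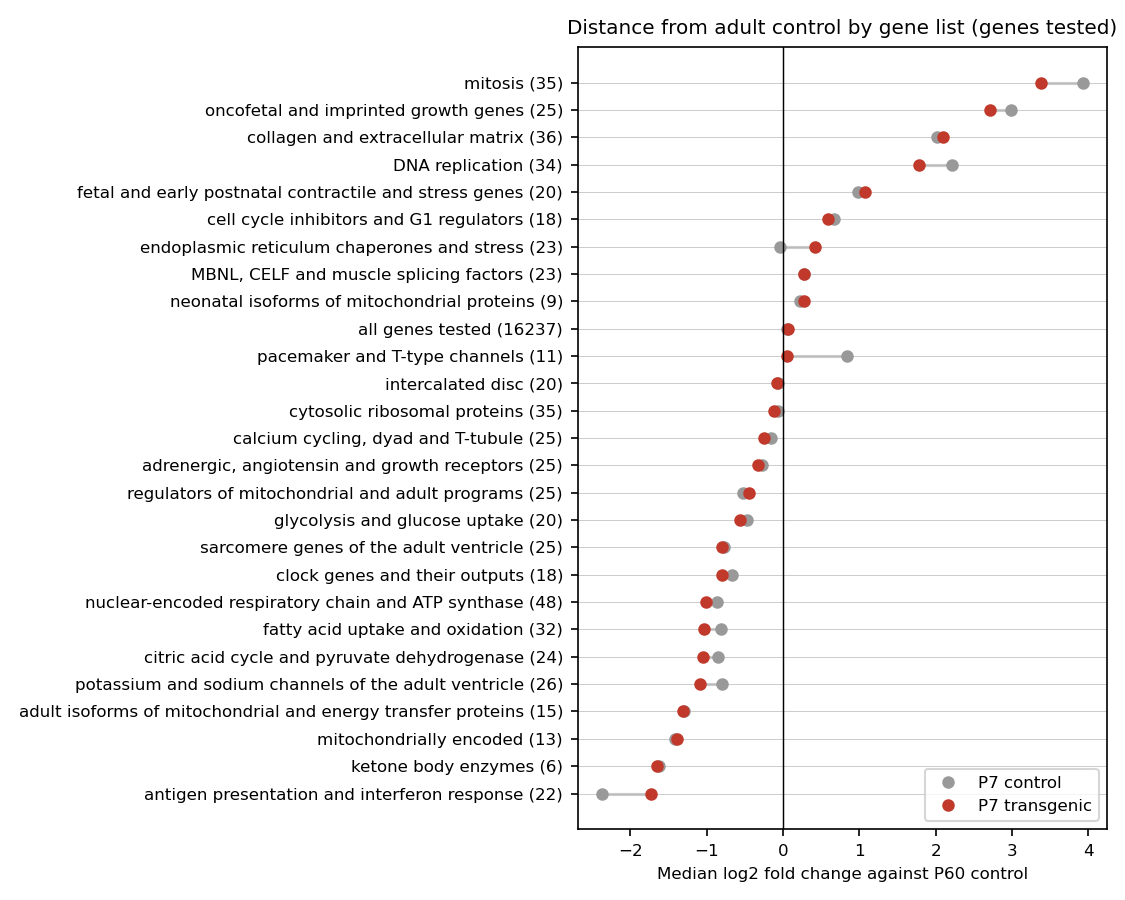
Median log2 fold change against adult control over the genes of each list, for P7 control (grey) and P7 transgenic (red). Mitosis genes shift from 3.93 to 3.38 and antigen presentation genes from -2.38 to -1.73, while respiratory chain genes shift from -0.87 to -1.02, away from 0.

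Genes of the citric acid cycle and the respiratory chain lay further from the adult than in P7 controls or had no call. All 24 genes of the citric acid cycle and pyruvate dehydrogenase and all 48 nuclear-encoded genes of the respiratory chain and ATP synthase were lower than the adult in both P7 groups (35.9% of all genes in transgenic P7 and 35.7% in P7 controls). With total count scaling these were 22 and 45 in transgenic P7 and 20 and 37 in P7 controls, with 1 and 2 genes higher in the latter. In the direct comparison 12 of 24 and 17 of 48 were lower in the transgenic ventricle and none higher, against 11.7% lower over all genes. The joint fit called 5 and 2 lower. The respiratory chain count was 11 without transgenic library 3 and 9 without P7 control library 1 or 3. Median distances were -1.05 against -0.85 for the citric acid cycle and -1.02 against -0.87 for the respiratory chain. Mdh2, mitochondrial malate dehydrogenase, held 833, 759, 792 and 812 CPM in transgenic P7, 1125, 1011 and 1128 in P7 controls and 1529 to 1746 in adults, and Atp5b, the catalytic subunit of ATP synthase, 3366, 3317, 3277 and 3274 against 4166, 3847 and 4080.2 and 5810.3 to 6711. In both genes every transgenic library was the further one from the adult. Muscle forms of cytochrome oxidase had no call between the P7 groups, with Cox7a1 at -2.26 ± 0.07 and Cox6a2 at -1.58 ± 0.06 from the adult against -2.39 ± 0.08 and -1.56 ± 0.07.

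Of 32 genes of fatty acid uptake and oxidation, the fuel of the adult heart, 1 was higher and 16 lower than in P7 controls (10.1% and 11.7% of all genes), and 0 and 2 in the joint fit. The median distance was -1.04 against -0.82. Lpl (ENSMUSG00000015568, chromosome 8, 68880491 to 68907448), the lipoprotein lipase that releases fatty acids from circulating fat, held 1063, 998, 978 and 1028 CPM in transgenic P7, 926, 938 and 936 in P7 controls and 5965 to 7175 in adults, with no call between the P7 groups. Dgat2, which makes triglycerides, was likewise -2.96 ± 0.07 from the adult. Acot1, a thioesterase that normal P7 ventricle holds above the adult level, was lower (25.5 ± 0.705, 58.1 ± 7.23 and 16.2 ± 6.16 CPM) and so nearer to the adult. Hadhb, a subunit of the trifunctional enzyme, was the higher gene (0.34 ± 0.09), a call that was lost without transgenic library 3 or P7 control library 2 or 3. Of the regulators of these programs, Ppara, the fatty acid receptor, fell to 8.76 ± 1.62 CPM from 13.6 ± 1.85 in P7 controls, with 36.0 ± 6.43 in adults. The coactivator Ppargc1a was -2.48 ± 0.29 from the adult against -2.30 ± 0.33, with no call between the P7 groups. Klf15 stood at -4.42 ± 0.16 from the adult against -3.76 ± 0.17, and its lower level in transgenic P7 was not called without P7 control library 2.

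Mitochondrially encoded genes took 16.4% ± 0.350 of the counts in transgenic P7 (n = 4), 15.5% ± 0.342 in P7 controls (n = 3) and 28.1% ± 1.55 in adults (n = 7). The exact permutation p was 0.0286 between the P7 groups and 0.00303 between transgenic P7 and adults, the smallest these designs allow. Among 13 such genes, 12 were lower than the adult in transgenic P7 (35.9% of all genes), and 2 were higher than in P7 controls (10.1% of all genes). These 2 were mt-Nd2 (0.30 ± 0.07) and mt-Nd4 (0.26 ± 0.07, not called without P7 control library 2). One more, mt-Co2, was called lower (-2.87 ± 0.77), but on a single library: it held 38.2, 35.0, 23.7 and 24.6 CPM in transgenic P7 and 28.8, 612 and 26.1 in P7 controls, and without P7 control library 2 the difference was 0.15 and not called. Nuclear copies of these genes make their counts uncertain. Of 15 adult isoforms of mitochondrial and energy transfer proteins, 14 were lower than the adult in both P7 groups (35.9% and 35.7% of all genes). The creatine kinase Ckmt2 (596 ± 21.5, 438 ± 35.9 and 2396 ± 183 CPM) and myoglobin Mb (3404 ± 284, 2725 ± 130.2 and 8396 ± 517) were nearer to the adult, and Ckm (775 ± 21.1, 1021 ± 51.3 and 1826 ± 123) and the muscle glycogen phosphorylase Pygm (571 ± 32.8, 707 ± 13.3 and 2036 ± 94.4) further away. Slc2a4, the insulin-responsive glucose transporter, remained -2.13 ± 0.05 from the adult.

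Among 20 genes of glycolysis and glucose uptake 1 was higher and 6 lower than in P7 controls (10.1% and 11.7% of all genes), and 0 and 2 in the joint fit. Eno1, the enolase form of immature muscle, fell towards the adult level (213 ± 8.03, 291 ± 13.01 and 184 ± 11.3 CPM), whereas the lactate dehydrogenase subunit Ldha fell further below it (475 ± 23.8, 578 ± 26.98 and 714 ± 52.7). Of the ketone body genes, Bdh1 was the furthest from the adult. Bdh1 (ENSMUSG00000046598, chromosome 16, 31422280 to 31458901), which oxidises beta-hydroxybutyrate, had 17, 4, 8 and 11 counts in the transgenic libraries and 14, 3 and 20 in P7 controls, while adults held 81.8 to 135 CPM. Its distance of -8.33 ± 0.24 on the log2 scale did not differ by call from the normal -8.05 ± 0.27.

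Genes of cell division were lower in the transgenic ventricle, while still far above the adult. All 35 mitosis genes tested were lower than in P7 controls (11.7% of all genes were). Higher than the adult were 34 of the 35 (39.7% of all genes), and the median distance was 3.38 against a normal 3.93. Melk, a mitotic kinase, held 5.89, 5.61, 6.90 and 6.14 CPM in transgenic P7, 9.82, 11.6 and 10.6 in P7 controls and 0.175 to 0.843 in adults. Kif11, the kinesin that separates spindle poles, held 18.4, 20.1, 14.8 and 21.4 against 27.9, 31.0 and 31.1 and 1.09 to 3.46. In both genes the 3 groups did not overlap. Cyclin B1 (Ccnb1) at 4.49 ± 0.12 and Cdca3, a trigger of mitotic entry, at 4.24 ± 0.12 were the furthest from the adult. The proliferation marker Mki67 stood at 66.4 ± 7.82, 98.6 ± 5.85 and 8.34 ± 3.22 CPM. The calls of Ccnb1 (-0.35 ± 0.10) and Mki67 (-0.57 ± 0.18) were lost without transgenic library 2 or 3 or any 1 of the P7 controls, and for Ccnb1 also without transgenic library 1. None of the 35 was called between the P7 groups in the joint fit of 27 libraries.

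Promoters of mitosis genes are known to carry CCAAT boxes, bound by NF-Y, and the cell cycle homology region TTTGAA, bound by the DREAM and MuvB complexes that silence or activate them. Both were searched on both strands of the 250 bases before the RefSeq start sites (GRCm38.p6), where 29 of the 35 genes matched. CCAAT was in 23 of 29 (79.3%, against 37.5% of all 27025 genes) and TTTGAA in 10 of 29 (34.5%, against 18.3%). CCAAT was not particular to this list, with 59.3% of the DNA replication genes and 77.3% of the endoplasmic reticulum genes described below. TTTGAA was in 11.1% and 4.55% of these. The sequences show the 3 of the 10 mitosis genes holding both that had the largest difference between the P7 groups, chosen after values were seen, with both motifs in capitals on either strand. They lie at chr19:37376242-37376381 (plus strand), chr9:70421555-70421731 (minus strand) and chr10:69352913-69353130 (minus strand), each ending at the last base before the start site.
Kif11: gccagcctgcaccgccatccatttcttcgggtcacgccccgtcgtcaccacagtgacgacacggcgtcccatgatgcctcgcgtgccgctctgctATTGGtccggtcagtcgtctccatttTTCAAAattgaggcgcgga
Ccnb2: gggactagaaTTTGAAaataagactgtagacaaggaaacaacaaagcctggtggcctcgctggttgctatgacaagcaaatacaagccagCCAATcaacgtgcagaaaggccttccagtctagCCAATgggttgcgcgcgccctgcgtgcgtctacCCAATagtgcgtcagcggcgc
Cdk1: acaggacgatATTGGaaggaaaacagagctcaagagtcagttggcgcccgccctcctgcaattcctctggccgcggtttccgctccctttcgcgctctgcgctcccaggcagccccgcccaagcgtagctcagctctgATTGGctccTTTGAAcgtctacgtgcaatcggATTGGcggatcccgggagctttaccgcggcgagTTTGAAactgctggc
Kif11 has a motif of each kind in its last 45 bases, Ccnb2 has 4 matches in all and Cdk1 has 5. Cyclin B2 (Ccnb2) changed by -0.68 ± 0.11 and the mitotic kinase gene Cdk1 by -0.67 ± 0.14, and both remained 3.51 ± 0.12 and 3.74 ± 0.15 above the adult.

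Of 34 DNA replication genes 14 were lower and none higher than in P7 controls (11.7% and 10.1% of all genes), and all 34 were higher than the adult in both groups (39.7% and 39% of all genes). The count was 9 without P7 control library 1 or 3, 23 in a fit of the P7 groups alone and 0 in the joint fit of 27 libraries. The median distance was 1.78 against 2.21. Thymidylate synthase (Tyms) stood at 7.78 ± 0.375, 11.5 ± 0.812 and 1.28 ± 0.356 CPM in transgenic P7, P7 controls and adults, and Rrm2, the ribonucleotide reductase subunit of S phase, remained 3.97 ± 0.09 above the adult. The cyclin-dependent kinase inhibitor Cdkn1a, which arrests cells in G1, held 165, 147, 179 and 156 CPM in transgenic P7, 57.2, 60.3 and 57.3 in P7 controls and 44.0 to 196 in adults. All transgenic values were above the P7 controls (1.47 ± 0.32) and overlapped the adults. Cdkn1b fell into the adult range (45.3 ± 1.47, 60.7 ± 3.32 and 48.3 ± 4.40 CPM), Cdkn2c fell part of the way (1.29 ± 0.07 left of 1.76 ± 0.07), and the D cyclin Ccnd2 rose away from the adult (1.23 ± 0.07 from 0.75 ± 0.08).

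Growth genes of the fetus remained far above the adult. Of 25 oncofetal and imprinted growth genes 10 were lower and 1 higher than in P7 controls (11.7% and 10.1% of all genes), and 3 and 0 in the joint fit. Still above the adult were 23 (24 in P7 controls), where 39.7% and 39% of all genes were. The median distance was 2.71 against 2.99. The imprinted gene Mest stood at 212 ± 5.29, 375 ± 20.8 and 7.82 ± 2.25 CPM, and the imprinted Notch ligand homolog Dlk1 at 25.8 ± 8.15, 43.1 ± 2.84 and 0.215 ± 0.148. Sox11, a transcription factor of embryonic progenitors, remained 7.44 ± 0.27 above the adult on the log2 scale. The growth factor Tgfb2 was the higher one (0.56 ± 0.11).

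The extracellular matrix of the transgenic ventricle remained neonatal. Of 36 matrix genes, 34 were higher than the adult (33 in P7 controls), where 39.7% and 39% of all genes were. The median distance was 2.10 against 2.02. In the direct comparison 8 were higher and 2 lower (10.1% and 11.7% of all genes), and none either way in the joint fit. The count of higher genes ran from 2 to 4 when any P7 library but transgenic library 4 was left out and was 13 without P60 control library 7. Tnc, the tenascin of growing tissue, was 4.44 ± 0.17 from the adult with no call between the P7 groups. Fbn2, the fibrillin of the embryo, fell (49.7 ± 3.68, 81.3 ± 3.39 and 0.808 ± 0.311 CPM) but kept a distance of 5.91 ± 0.12. The collagen Col8a1 rose towards the adult (11.9 ± 3.96, 6.67 ± 0.501 and 26.5 ± 3.04) and thrombospondin Thbs1 rose away from it (50.8 ± 6.65, 30.1 ± 1.78 and 11.7 ± 4.43). The 14 fibroblast markers summed to 7018 to 8302 CPM in transgenic P7, 5749.8 to 6603 in P7 controls and 3206 to 4358 in adults. Their part in the matrix values was not tested.

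Macrophage genes were nearer to the adult in the transgenic ventricle. Of 15 macrophage and monocyte markers tested, 11 were higher than in P7 controls (10.1% of all genes were) and none lower, and the median distance was -1.51 against -2.26. C1qc, a chain of complement C1q made by resident macrophages, held 28.8, 20.5, 31.2 and 25.9 CPM in transgenic P7, 13.4, 15.3 and 15.96 in P7 controls and 55.6 to 86.3 in adults. The clotting factor gene F13a1 held 12.1, 13.3, 13.7 and 12.2 against 7.32, 7.09 and 6.46 and 45.9 to 72.1. Near the adult level were 3 of the list, the growth factor receptor Csf1r (-0.73 ± 0.09 left of -1.51 ± 0.10), Adgre1, the F4/80 antigen (-0.44 ± 0.15 of -1.11 ± 0.17), and Cd68 (-0.71 ± 0.12 of -1.27 ± 0.14). They were named after their values were seen. The scavenger receptor Cd163 remained -4.73 ± 0.19 from the adult. Cx3cr1, the fractalkine receptor, rose away from it (20.03 ± 2.61, 11.5 ± 1.19 and 0.885 ± 0.318 CPM). All 16 markers in the table were detected in each group, and their sum was 181 to 224 CPM in transgenic P7, 113 to 134 in P7 controls and 393 to 609 in adults. The joint fit of 27 libraries tested 16 and called 5 higher.

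Antigen presentation and interferon genes were lower than the adult in all 22 members and both P7 groups (35.9% and 35.7% of all genes). In transgenic P7, 6 were higher than in P7 controls (10.1% of all genes) and none lower, with a median distance of -1.73 against -2.38. The number of higher genes was 12 by DESeq2, 17 with no low-count filter, 1 in the joint fit of 27 libraries, 3 without P7 control library 2 and 10 or 11 without transgenic library 4 or P60 control library 2 or 7. Transgenic library 1 stood at 29.7% on the axis from P1 to adult for this list, against 14.4% to 15.4% in the other 3. Cd74, the invariant chain of MHC class II, stood at 8.35 ± 1.19, 4.92 ± 0.555 and 176 ± 38.2 CPM, with a call between the P7 groups that was lost without P7 control library 1 or 2. Ifit1, an interferon-induced RNA sensor, lost its call without transgenic library 1 or P7 control library 2. H2-Aa, an MHC class II chain, was -5.02 ± 0.23 from the adult.

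Many genes of the endoplasmic reticulum and its stress response rose in the transgenic ventricle. Of 23 members, 14 were higher than in P7 controls (10.1% of all genes) and none lower, and 18 were higher than the adult (39.7% of all genes) where P7 controls had 8. The median distance was 0.42 in transgenic P7 and -0.04 in P7 controls. With total count scaling, 20 of the 23 were higher than the adult in transgenic P7 and 16 in P7 controls. That scaling called 13 higher and 0 lower in transgenic than in control P7. Gdf15 (ENSMUSG00000038508, chromosome 8, 70629393 to 70632456), a stress-induced secreted factor, held 15.3, 16.6, 24.5 and 12.6 CPM in transgenic P7, 1.70, 1.53 and 1.87 in P7 controls and 1.37 to 3.39 in adults. All 4 transgenic values were above both other groups, whose ranges overlapped (3.34 ± 0.26 and 2.80 ± 0.19). Atf3, a transcription factor of the stress response, held 46.2, 26.3, 14.6 and 14.2 CPM against 6.03, 4.49 and 3.30 and 4.04 to 26.9, with library 1 the highest. It was above all P7 controls (2.46 ± 0.43) and overlapped the adults, and its call against the adult was lost without transgenic library 1. Herpud1, which serves in degradation of reticulum proteins, remained far below the adult (-2.87 ± 0.08 against -3.06 ± 0.09). In the joint fit 7 of the 23 were higher than in P7 controls.

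Chaperone promoters are known for the endoplasmic reticulum stress element, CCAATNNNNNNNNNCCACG, read by NF-Y together with ATF6 and XBP1. It was found on either strand of the 250 upstream bases in 7 of 22 list genes with a RefSeq promoter (31.8%), against 35 of 27025 genes (0.13%). The element contains CCAAT, so the searches overlap. Of the 7 genes, 3 were called higher than in P7 controls, a smaller part than the 14 of 23 over the list. The windows of these 3 are given with the element in capitals, at chr2:34771950-34772089 (plus strand), chr10:86705445-86705666 (minus strand) and chr14:118937792-118937931 (plus strand).
Hspa5: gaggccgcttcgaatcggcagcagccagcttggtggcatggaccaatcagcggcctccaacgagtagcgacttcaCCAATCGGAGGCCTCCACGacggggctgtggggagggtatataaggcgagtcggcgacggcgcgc
Hsp90b1: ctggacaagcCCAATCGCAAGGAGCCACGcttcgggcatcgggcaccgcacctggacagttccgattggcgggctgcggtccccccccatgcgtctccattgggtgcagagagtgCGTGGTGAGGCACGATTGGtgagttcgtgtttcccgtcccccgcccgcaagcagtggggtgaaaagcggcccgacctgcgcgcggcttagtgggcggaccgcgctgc
Dnajc3: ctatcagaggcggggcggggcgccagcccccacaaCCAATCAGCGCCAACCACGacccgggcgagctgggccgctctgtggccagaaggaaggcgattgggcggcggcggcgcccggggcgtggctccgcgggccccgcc
Hsp90b1 has 2 copies of the element, on opposite strands. Hspa5, the main chaperone BiP, held 445, 395, 442 and 466 CPM in transgenic P7, 259.9, 286 and 269.7 in P7 controls and 300.3 to 450.2 in adults, which placed it slightly above the adult (0.18 ± 0.08) from a normal -0.50 ± 0.09. Hsp90b1, the chaperone GRP94, stood at 266 ± 15.99, 193 ± 17.4 and 199 ± 21.3 CPM, and Dnajc3, a co-chaperone, at 37.2 ± 0.666, 29.6 ± 0.138 and 51.0 ± 4.11, still below the adult. These genes were chosen after their values were seen.

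Of the 8 genes furthest above the adult, all but Gm3608 were called between the P7 groups, whereas the 8 furthest below had no such call by edgeR (of these, Ces1d alone had an unadjusted p under 0.05, and DESeq2 called Ces1d alone). Highest was Tmprss11d (ENSMUSG00000061259, chromosome 5, 86302217 to 86373420), a transmembrane serine protease of airway epithelium, with 1167, 1006, 1050.5 and 1145 CPM in the transgenic libraries. P7 controls had 2, 2 and 1 counts, and of the adults only libraries 5, 6 and 7 had any (1, 4 and 55 counts). The gene was thus present at high level in the transgenic libraries alone, and its fold over either group rests on few counts there. After it came genes of the P7 heart, Tnni1, the carboxypeptidase Cpa1 (7.56 ± 0.32 against a normal 8.34 ± 0.31), Sox11, Dlk1, Gm3608 (6.03 ± 0.23 against 6.10 ± 0.24), Fbn2 and Krt8. At the lower end, Acsm5, a medium-chain acyl-CoA synthetase, and Cfd, the adipocyte protease adipsin, had 0 counts in all 4 transgenic libraries. Against 3 counts over the group they were at least 262-fold and 219.7-fold lower than the adult means of 6.60 ± 1.17 and 5.52 ± 3.62 CPM, and P7 controls had 1 and 3 counts in all. The methyltransferase Inmt, the interferon-inducible Ifi205 and the immunoglobulin chain Igha had 1, 2 and 1 counts over the transgenic group, against 12.6 ± 5.50, 16.4 ± 5.79 and 6.48 ± 1.71 CPM in adults. Hrasls had 6 counts over the transgenic group and 4 over P7 controls, against 27.5 ± 3.90 CPM in adults. The carboxylesterase Ces1d was -8.15 ± 0.20 from the adult against -7.35 ± 0.21.

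Some genes had moved away from the adult. Below it, beside Scn4a, were the organic cation transporter Slc22a3 (-4.83 ± 0.18 against a normal -3.25 ± 0.17), the glutamate transporter Slc17a7 (-3.05 ± 0.18 against -1.52 ± 0.18), the chloride channel Clcn1 (-3.34 ± 0.17 against -1.85 ± 0.16) and the kinase Wnk2 (-4.64 ± 0.12 against -3.19 ± 0.13). Wnk2 held 9.87, 11.5, 8.12 and 9.67 CPM in transgenic P7, 26.7, 27.9 and 26.0 in P7 controls and 180.4 to 316 in adults. Above it, Nmrk2, the muscle nicotinamide riboside kinase that salvages NAD, held 65.9, 44.4, 76.5 and 75.8 CPM against 11.2, 12.3 and 13.2 and 2.79 to 5.94, taking it from 1.58 ± 0.15 to 4.01 ± 0.13. The simple epithelial keratins Krt8 (7.45 ± 2.42, 1.72 ± 0.184 and 0.139 ± 0.0891 CPM) and Krt18 (20.9 ± 9.79, 4.23 ± 1.03 and 0.712 ± 0.212) partner each other in filaments and rose together. The exchanger Slc9a3 and the sodium pump modulator Fxyd7 rose by 2.23 ± 0.23 and 1.66 ± 0.19. Epicardial and mesothelial markers, of which Krt8 is 1, summed to 87.8 to 96.0 CPM in transgenic P7, 70.3 to 81.6 in P7 controls and 11.6 to 19.2 in adults. Of 8 tested, only Krt8 itself was called between the P7 groups, near the 10.1% of all genes called higher.

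Finally, among genes with no call between P7 controls and adults, 308 were called higher and 237 lower in the transgenic ventricle than in both groups. Of the 16237 genes tested, the 12120 called between P7 controls and adults could not enter these counts. A share of all 16237 genes would therefore understate them. The direct comparison of the P7 groups called 10.1% of all genes higher and 11.7% lower. Beside Tmprss11d, Gdf15, Nppa and Hcn4, the largest included Blk, a Src-family kinase (11.7 ± 0.979 CPM in transgenic P7 against 3.20 ± 0.353 and 2.78 ± 0.776), and Btg2, an antiproliferative target of p53 (93.1 ± 19.2 against 28.8 ± 0.763 and 32.9 ± 2.98). On the lower side were the small GTPase Rasd2 (2.14 ± 0.533 against 6.65 ± 0.411 and 7.93 ± 1.95), the myosin Myo5c (2.68 ± 0.558 against 7.43 ± 0.540 and 6.93 ± 1.43), the amino acid transporter Slc6a17 (2.72 ± 0.0844 against 8.16 ± 1.40 and 7.05 ± 1.21) and the ephrin Efnb3 (50.1 ± 11.02 against 135 ± 10.2 and 117 ± 20.9). That the transgenic values of these genes overlapped neither group was a condition of their choice. P7 controls and adults overlapped each other in each of them. The splicing regulator Rbfox1 left the adult as well: it held 12.6, 12.96, 8.12 and 10.6 CPM against 29.99, 27.9 and 25.8 and 55.2 to 67.4, which moved it from -1.13 ± 0.11 to -2.47 ± 0.11. Among 23 MBNL, CELF and muscle splicing factors, 3 were higher and 9 lower than in P7 controls (10.1% and 11.7% of all genes), and 2 and 1 in the joint fit, the lower count being 5 without transgenic library 1 or P7 control library 1 and 4 without P7 control library 3. Celf2, which often opposes MBNL proteins, rose towards the adult level (73.4 ± 2.35, 59.2 ± 2.21 and 77.2 ± 3.36 CPM). Its transgenic values overlapped the adult range only through P60 control library 7 at 70.2 CPM, since the other adults held 76.3 to 80.5. Of 35 cytosolic ribosomal protein genes none was called between the P7 groups at an adjusted p under 0.05 by edgeR, none had an unadjusted p under 0.05, and DESeq2 called none.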

How the data were processed

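RNA was extracted with TRIzol and RNeasy and sequenced on DNBseq, per the labels' protocols. The authors deposited 1 table of raw gene counts. The submitters' processing notes name STAR, featureCounts, Salmon, DESeq2, GRCm38 and mm10, without roles or versions, and whether counting used strand is not given in the sources used here. Of 55487 gene IDs, 55227 matched GENCODE M21, which gave symbols and coordinates, and 32196 had a count in the 14 libraries. The members and gene lists were chosen with earlier results of these data known, and list genes are described by counts and medians, not by set tests.

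Low counts were filtered with filterByExpr and 14 libraries were fitted in 4 groups with edgeR 4.0.16 (TMM, quasi-likelihood test, R 4.3.3), the adult being the mean of both P60 control groups. The standard error is the log2 fold change divided by the square root of F. P-values were adjusted by Benjamini-Hochberg over 16237 genes. The script was tested on simulated data. Isoform shares used counts per exon length and a two-sided exact permutation test. Promoters were RefSeq windows. Positions used log2 CPM with a prior count of 2. No pair of libraries within a group differed by less than sampling noise.

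Named genes followed a rule: Mbnl genes and isoform pairs, the 8 called genes furthest from the adult in each direction, the 8 near genes with the largest normal distance in each direction, the 5 that moved furthest away and the 5 furthest outside in each direction, with at least 5 CPM in 1 group, and up to 2 genes per list for each called direction and for the distance. Genes named as furthest from the adult also had to be free of overlap with the adult values. Near genes and genes that moved away had to be free of overlap with P7 controls, and outside genes with both. For a gene named by these parts of the rule alone, that lack of overlap was fixed by the choice. Not all genes the rule gives are printed. Alternatives were other scalings, DESeq2 1.42.0, limma-voom 3.58.1, no filter, other sets of libraries or adult groups, sex as a covariate, mitochondrial genes removed, a replicate block and leaving out each library. Positions without 2 P1 libraries or with 1 adult group, and list counts in each setting, were added after seeing the data.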

Additional observations from a re-analysis of the deposited data

Results flagged for a closer look

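Within the 4 transgenic and the 7 adult libraries, 311 groups of values were tested for a sample far from the others by Dixon's ratio, and 20 were found, where chance flags about 1 in 20 groups. P60 control library 7 stood out in 6 of them. It was the highest adult library for Tnni1 (1.475 CPM, the others 0.287 to 0.512) and for the Tnni1 share (0.01925%, the others 0.0036% to 0.00704%), for Tmprss11d (2.797 CPM, the others 0 to 0.233), Blk (4.424 CPM, the others 2.222 to 2.897) and Mest (12.56 CPM, the others 5.85 to 8.60). It was the lowest for Celf2 (70.22 CPM, the others 76.3 to 80.5). In other adult libraries Ccn2 was highest in library 2 (284.6 CPM, the others 130 to 176), Nr4a1 in library 5 (114.4 CPM, the others 34.9 to 57.5) and Ldb3 in library 6 (1648 CPM, the others 1501 to 1542).

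Transgenic library 3 was the highest for Col8a1 (17.85 CPM, the others 9.67 to 10.2) and Cpeb1 (20.54 CPM, the others 13.4 to 14.2), and the lowest for Hrc (147.2 CPM, the others 182 to 185), Myo5c (1.852 CPM, the others 2.87 to 3.07) and Rrm2 (45.43 CPM, the others 50.1 to 50.9). Transgenic library 1 was the highest for Lmod2 (336.0 CPM, the others 239.8 to 256) and, on the axis from P1 to adult, for antigen presentation and interferon genes (29.65%, the others 14.4% to 15.4%). Dgat2 was highest in transgenic library 2 (110.8 CPM, the others 101 to 102). A single count set Igha and Inmt in transgenic library 1 (0.03405 CPM each, 0 in the others), and Hrasls had 3 counts in library 4 (0.1 CPM) and 1 in each of the others.

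The groups of adult controls differed in 1 gene the report names: Adra1a differed by -0.8416 on the log2 scale between the 14d and the 7d controls (edgeR quasi-likelihood adjusted p = 0.0298).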

How the results depend on the processing

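Leaving out any 1 library kept each of the counts over all genes within 1.5 times its value: 1102 to 2075 genes were higher and 1329 to 2040 lower in transgenic than in control P7. The replicate number was no pairing (correlations of same-numbered libraries -0.195 to 0.0841), and a fit with the number as a replicate block called 1791 higher and 1730 lower. In the joint fit of 27 libraries these were 511 and 462, adult-high genes 217 higher and 51 lower, adult-low genes 29 higher and 190 lower, and near genes 120; the cause was not tested. In that fit sarcomere genes had 2 higher and 0 lower, fatty acid genes 0 and 2, matrix genes 0 and 0, and oncofetal genes 0 and 3. With total count scaling, transgenic P7 had 11203 genes higher and 2533 lower than the adult and P7 controls 10987 and 2579, adult-high genes 293 higher and 95 lower than in P7 controls, and adult-low genes 205 higher. Adult-low genes had 140 higher with no low-count filter and 150 with only the groups compared in each fit. A 1.5-fold bound left 49 near genes. A maturation choice at 4-fold, with fewer genes, gave adult-high 233 higher and 71 lower, and adult-low 31 higher and 383 lower.

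Total count scaling, which lifts the median gene, turned these transgenic distances from the adult to above 0: Actc1 0.53, Adgre1 0.15, Adra1b 0.28, Cdkn1b 0.50, Celf2 0.52, Des 0.076, Dnajc3 0.13, Npr3 0.26, Nr4a1 0.039, Nrap 0.10, Xirp2 0.53 and the median of calcium cycling genes 0.34. For P7 controls it did so for Actc1 0.27, Asph 0.18, Btg2 0.41, Cacnb2 0.47, Celf2 0.22, Hsp90b1 0.55, Hspa5 0.097, Ldb3 0.084, Ldha 0.28, Mdh2 0.034 and the median of calcium cycling genes 0.44. The P7 control distance of Tmprss11d was 3.61 with the 7d adults alone and 3.63 with the replicate block, both of which leave out P60 control library 7. Without P7 control library 2, mt-Co2 was -2.38 from the adult in P7 controls and 0.15 higher in transgenic than in control P7, against 1.17 and -3.40 without P7 control library 3. Counts under the floor of 3 limit genes near 0.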
